A study of Drosophila melanogaster with 3 samples.

Results

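The genes for translation initiation factors were taken as every protein-coding gene of the fly annotation whose symbol starts with eIF, which gave 44 genes of 13945 protein-coding genes on 6 chromosome arms (2L, 2R, 3L, 3R, 4 and X). Around them, peaks of the zinc finger transcription factor Senseless were examined. Chromatin came from whole transgenic Drosophila melanogaster embryos of mixed sex, of a line that stably carries sens fused at its C-terminus to eGFP, and an antibody against GFP was used for immunoprecipitation. The embryos were 4 to 14 hours old by the source description, since the labels' age field holds an implausible value. There was 1 group of 3 biological replicates and no second condition, so no test between groups was possible, and all shares below are descriptions. Because whole embryos were used, a peak averages over all cell types. On dm6, replicates 1, 2 and 3 had 30000, 30000 and 27681 deposited peaks. A deposited −log10 q-value of at least 2 was reached by 4384, 6319 and 4482 of them. Most peaks of each replicate list thus fell short of it, and a rank far down a list marks a weak call. Peaks are called reproducible here where they are in the authors' list thresholded on the irreproducible discovery rate (IDR), whose 3811 entries are the 3811 strongest of the 28357 pooled peaks. Ranks are by the authors' signal value within a list, with rank 1 the strongest, and the depth of the libraries is unknown. No control immunoprecipitation is listed among the inputs of these peak lists.

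Initiation is the step of translation in which the small ribosomal subunit, carrying the initiator tRNA, is brought to the capped end of an mRNA and scans to a start codon, where the large subunit joins. The eIF4 factors recognise the cap and unwind the leader, eIF3 and eIF2 form the complex that scans, eIF1, eIF1A and eIF5 control start codon choice, eIF2B recharges eIF2 with GTP, and eIF5B and eIF6 act on the joining of the subunits. Senseless is known for its part in sensory organ precursors. The symbol rule leaves out initiation proteins with other names, such as NAT1, kra and Thor.

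The following bases lie within 50 bp of the summits of 6 of these peaks. They are shown because they carry the motif matches and the range of base composition described further on. They were read from the RefSeq dm6 sequence on the strand of the initiation factor gene and stop at the first annotated exon. Capitals mark matches to TATCGATA, the site of the factor DREF (the DNA replication-related element, DRE), the only one of the searched motifs found in these stretches.
eIF1 (chr3L:3222961-3223055, plus strand): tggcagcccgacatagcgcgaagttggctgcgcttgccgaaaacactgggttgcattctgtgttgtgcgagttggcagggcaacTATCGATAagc
eIF4A (chr2L:5981704-5981763, plus strand): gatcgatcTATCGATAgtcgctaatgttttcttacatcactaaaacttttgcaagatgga
eIF1A (chr3R:18274492-18274592, plus strand): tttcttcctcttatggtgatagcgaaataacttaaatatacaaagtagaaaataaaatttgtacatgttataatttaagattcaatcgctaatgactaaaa
eIF2D (chr3R:29151811-29151911, minus strand): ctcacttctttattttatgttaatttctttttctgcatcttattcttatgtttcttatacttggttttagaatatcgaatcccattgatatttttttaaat
eIF4EHP (chr3R:24109087-24109187, minus strand): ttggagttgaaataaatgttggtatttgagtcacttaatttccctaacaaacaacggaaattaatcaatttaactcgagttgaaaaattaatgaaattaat
eIF2Bbeta, 692 bp upstream of its start (chrX:2703853-2703929, plus strand): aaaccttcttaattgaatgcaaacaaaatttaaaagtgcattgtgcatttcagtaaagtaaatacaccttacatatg

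Of the 44 initiation factor genes, 13 (29.5%) had a reproducible summit within 500 bp of a transcript start of their own, against 16.4% of all protein-coding genes. The set was chosen with earlier results of these data known, so this contrast is a description only. The 13 genes were eIF1, eIF1A, eIF2beta, eIF2D, eIF3a, eIF3c, eIF3h, eIF3m, eIF4A, eIF4EHP, eIF4G2, eIF5B and eIF6. A further 10 genes had a summit only elsewhere in the gene body or within 5 kb of it, and 21 had none. The gene body with 5 kb on each side thus held a summit for 23 of the 44 (52.3%), against 42.4% of all protein-coding genes. With a summit counted only for the gene with the nearest transcript start, 8 genes (18.2%) had one at an own start, against 11.8% of all protein-coding genes, and the same 8 (18.2%) had one in the gene body with 5 kb on each side, against 16.7%. The initiation factor genes had a median length of 1967 bp, against 2166 bp for all protein-coding genes, and a median of 1 transcript start in both sets. Among the 13 genes, the start summit farthest from its own start was that of eIF1, 336 bp upstream. The first summit beyond the window of 500 bp was that of eIF2Bbeta, 692 bp upstream.

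The share was similar when each replicate was taken alone. Among the 3811 strongest peaks of each replicate, 14, 11 and 12 initiation factor genes had a summit at an own start in replicates 1, 2 and 3. This is 28.0% ± 3.5 of the 44 genes (SD, n = 3 replicates), against 16.3% ± 0.37 of all protein-coding genes (SD, n = 3), of which 16.4%, 16.6% and 15.9% had such a peak in replicates 1, 2 and 3. The lowest initiation factor share, that of replicate 2, lay above the highest share over all genes. This spread is between replicates of the same genes and does not measure how far a share of 44 genes could vary by chance. In replicate 2 all 11 genes were among the 13 with a reproducible summit, and in replicates 1 and 3 it was 12 of 14 and 10 of 12. The reproducible list was derived from these same replicates, so such overlap is partly built in. It was not counted over all protein-coding genes. The pooled list in full had a summit at an own start for 27 initiation factor genes (61.4%), against 49.6% of all protein-coding genes. A start peak of any rank was in all 3 replicate lists for 21 of the 44 genes (47.7%), against 34.8% of all protein-coding genes, and in none of them for 12 (27.3%), against 34.4%. Peaks of any rank include the weak calls far down each list.

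**Figure D1:**
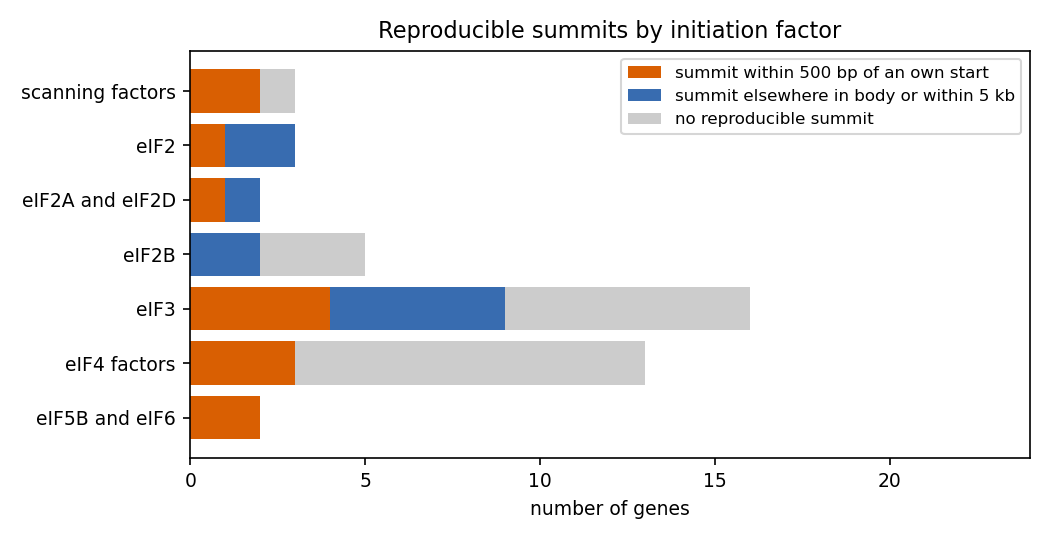
Number of initiation factor genes (horizontal axis) with a reproducible summit within 500 bp of an own start (orange), with one only elsewhere in the gene body or within 5 kb (blue) or with none (grey), by factor (vertical axis). Start summits were found in every group except eIF2B, and the eIF4 group had the most genes with none, 10 of 13. The groups hold 2 to 16 genes each. Over all protein-coding genes, 16.4% had a start summit and 42.4% had one in the gene body or within 5 kb.

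Among the factors that control scanning and the choice of the start codon, eIF1 and eIF1A had a start summit and eIF5 had none. The share with a start summit over all protein-coding genes was 16.4%. The peak at eIF1 (3L, summit 3223005) ranked 771 of 3811, and 974, 828 and 659 in replicates 1, 2 and 3. It lay 336 bp upstream of eIF1 but only 45 bp upstream of RpL28, a ribosomal protein gene that is transcribed in the opposite direction from a start 381 bp away. The peak at eIF1A (3R, summit 18274542) ranked 2447, and 1596, 1900 and 8538 in the replicates. Replicate 3 thus stood apart, with the peak outside its 3811 strongest. That summit lay between eIF1A, 123 bp away, and Vps39, 96 bp away, the gene of a vesicle tethering protein. The start of eIF5, which promotes GTP hydrolysis by eIF2, carried peaks of rank 23978 and 19869 in replicates 1 and 2 and no peak in replicate 3.

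The initiator tRNA is carried by eIF2, a complex of 3 subunits. Only eIF2beta among them had a start summit, beside 16.4% of all protein-coding genes. The peak of eIF2beta (3L, summit 12527051) lay 320 bp upstream, with no other coding gene's start within 500 bp. It ranked 2513, and 2871, 2455 and 2680 in replicates 1, 2 and 3. The 3 replicate ranks differed by a factor of 1.17, the smallest among the 13 genes. For eIF2alpha, the subunit that stress kinases phosphorylate, the only summit lay 5627 bp from its start and 67 bp upstream of rngo. For eIF2gamma, the GTP-binding subunit, the summit lay 2129 bp upstream, 4 bp from the start of ATPsynO. The start of eIF2gamma itself had peaks of rank 18811, 27925 and 2369 in replicates 1, 2 and 3, so that replicate 3 alone placed it among its strongest.

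The gene of eIF2D, which in mammals can deliver tRNA to the ribosome without eIF2, had a peak of its own (3R, summit 29151861). It lay 67 bp upstream of the start, with no other coding start within 500 bp, and ranked 1207, and 1223, 1295 and 1662 in the replicates. The other such gene, eIF2A, had summits only 3360 and 7760 bp downstream of a start, at CG32448 and at Nopp140, a nucleolar protein gene.

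None of the 5 eIF2B genes had a start summit, beside 16.4% of all protein-coding genes. The subunits alpha, delta and epsilon had no reproducible summit within 5 kb, although their starts lie 90, 58 and 107 bp from those of the divergent genes Vps13B, roh and Ocrl. The start of eIF2Balpha had no peak in any replicate list, and those of eIF2Bdelta and eIF2Bepsilon had peaks in 2 replicates each, of ranks between 9737 and 24027. Close to eIF2Bbeta stood a peak that ranked 3 in the whole reproducible list (X, summit 2703879), and 4, 4 and 1 in replicates 1, 2 and 3. It lay 692 bp upstream of eIF2Bbeta and 27 bp upstream of the start of Ugalt, which encodes a nucleotide sugar transporter of the Golgi. That start is 719 bp from that of eIF2Bbeta. The summit near eIF2Bgamma, 1250 bp upstream of it, lay 24 bp upstream of Vha36-1, a proton pump subunit gene.

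The 16 genes of eIF3, the large complex that holds the scanning ribosome together, include 4 with a start summit, 5 with a summit only farther off and 7 with none. A start summit was found at 16.4% of all protein-coding genes, and one in the gene body or within 5 kb at 42.4%, beside 9 of the 16. The strongest eIF3 start summit was at eIF3c (2R, summit 17665607), a core subunit, with rank 595, and 473, 511 and 989 in replicates 1, 2 and 3. It lay 71 bp upstream, nearest to eIF3c itself. The gene of eIF3h held 2 summits with overlapping peaks (2L, 5052514 and 5052716) at ranks 747 and 1349. They lay 266 and 64 bp downstream of a start, in an intron and in a coding exon, and were the only start summits of the 13 genes that lay downstream of the nearest own start. The stronger ranked 906, 655 and 993 in the replicates. Both eIF3h summits also lay within 500 bp of a start of senju, a divergent gene that starts 63 bp from eIF3h. The peak of eIF3m (2R, summit 14164951) ranked 1284, and 1286, 1697 and 1061, and lay 126 bp upstream of eIF3m and 100 bp upstream of CG8323. The gene of eIF3a, a scaffold subunit, shared its peak (3R, summit 4433980) with CG1074, in whose 5' UTR it lay, 15 bp downstream of that start and 85 bp upstream of eIF3a. It ranked 1689, and 1588, 1192 and 4180 in the replicates, with replicate 3 lowest and outside the limit of 3811.

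The other eIF3 genes had no start summit. For eIF3d1, eIF3e, eIF3g1, eIF3j and eIF3l, the summits in or near the gene lay nearest to GILT2, CG9706, Smyd3, CG12134 and RhoGAP68F. The genes eIF3b, eIF3d2, eIF3f1, eIF3f2, eIF3g2, eIF3i and eIF3k had none within 5 kb. Of these, eIF3b came closest to the reproducible list, with a start peak of rank 4263 in the pooled list and 1939, 5897 and 6902 in replicates 1, 2 and 3. The paralogs eIF3d2, eIF3f2 and eIF3g2 had no start peak in any replicate list. Among their partners, eIF3g1 also had none, eIF3f1 had ranks of 27626, 23131 and 22641, and eIF3d1 had 6199, 6974 and 6947.

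Of the 13 eIF4 genes, 3 had a start summit and the other 10 had no reproducible summit within 5 kb. Over all protein-coding genes, 16.4% had a start summit and 42.4% had one in the gene body or within 5 kb. The peak at eIF4EHP (3R, summit 24109137) was the strongest of the 3, with rank 679, and 813, 572 and 965 in replicates 1, 2 and 3. eIF4EHP binds the cap without supporting initiation and represses caudal and hunchback mRNAs in the fly embryo. Its peak lay 177 bp upstream, nearest to its own start, with CG18428 in the other direction 376 bp from that start. The peak of the helicase gene eIF4A (2L, summit 5981754) lay 10 bp upstream of its start and was the weakest of the 13, with rank 3675, and 4104, 4797 and 3211 in the replicates. It was therefore among the 3811 strongest of replicate 3 alone. The scaffold gene eIF4G2, needed in male meiosis, had a peak (3R, summit 23819317) 80 bp upstream of a start position that it shares with CG33111. It ranked 3436, and 2070, 5150 and 4582, and was among the strongest of replicate 1 alone.

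The cap-binding family was otherwise without reproducible summits. Of its 7 genes, eIF4E1, eIF4E3, eIF4E4, eIF4E5, eIF4E6 and eIF4E7 had none. A start summit was thus at 1 of 7 genes, beside 16.4% of all protein-coding genes. The same 1 of 7 had a summit in the gene body or within 5 kb, beside 42.4%. The start peak of eIF4E1, the general cap-binding protein of the fly, ranked 4788 in the pooled list, and 2802, 6635 and 5074 in replicates 1, 2 and 3. At eIF4E4, eIF4E5 and eIF4E7 no replicate list held a start peak, at eIF4E3 a single one of rank 23859 in replicate 3, and at eIF4E6 ranks of 6140 and 24094 in replicates 1 and 3. The scaffold gene eIF4G1, on chromosome 4, had start peaks of rank 5789 and 19855 in replicates 1 and 2 and none in replicate 3. Of the helicase cofactor genes, eIF4B and eIF4H2 had no start peak in any list, and eIF4H1 had ranks of 6772, 11133 and 23621.

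Both genes that act on subunit joining had a start summit, beside 16.4% of all protein-coding genes. The strongest of all 13 was at eIF6 (2R, summit 23850421), whose product keeps the large subunit from joining too early. It ranked 120, and 216, 129 and 81 in replicates 1, 2 and 3. It lay 120 bp upstream of eIF6 and 91 bp inside a non-coding antisense RNA gene, asRNA:CR45928, so the nearest start was not that of eIF6. The peak at eIF5B (3L, summit 3460761), the gene of the GTPase that joins the subunits, ranked 2667, and 2853, 3143 and 2225. It lay 158 bp upstream of the nearer of 2 eIF5B starts, inside the 5' UTR of the longer transcript.

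**Figure D2:**
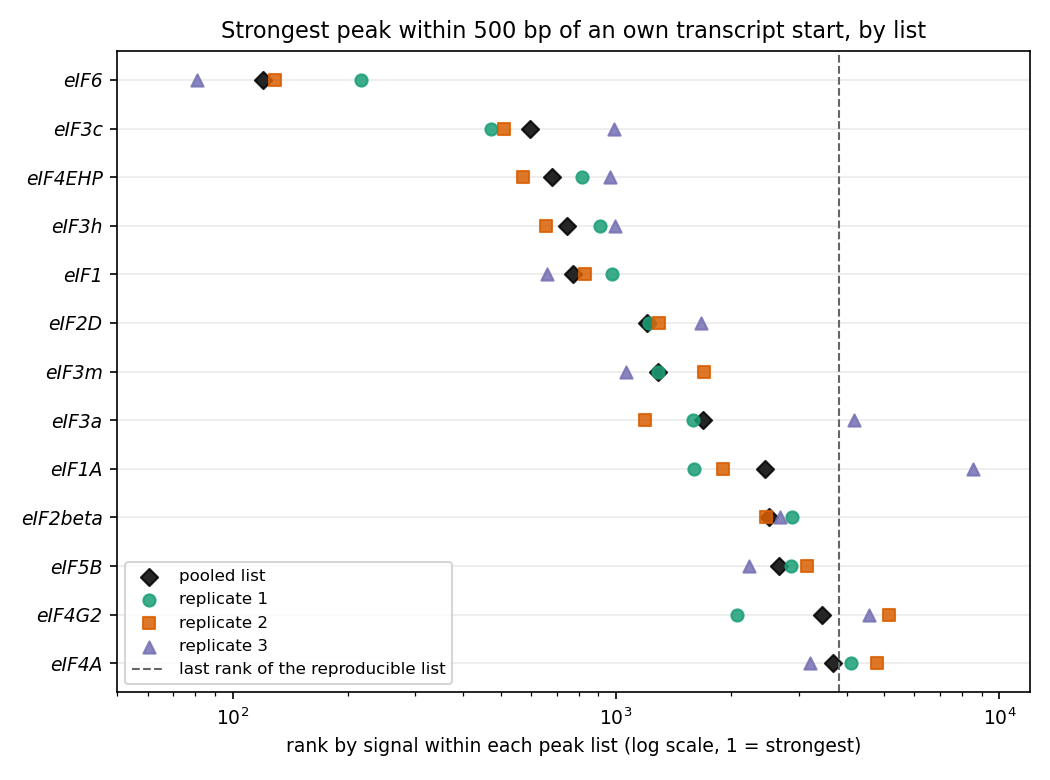
Rank by signal (horizontal axis, log scale) of the strongest peak within 500 bp of an own start, for the 13 genes with a reproducible start summit (vertical axis), in the pooled list (diamonds) and replicates 1 to 3 (circles, squares, triangles). The dashed line is rank 3811; eIF6 stood first in each list, and points beyond the line belong to eIF3a, eIF1A, eIF4G2 and eIF4A.

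The strongest start peaks of the 13 genes had a median rank of 1284, against 1742 for the 2287 protein-coding genes with a start summit. In 9 of the 13 genes (69.2%) each of the 3 replicates had the summit inside a peak among its 3811 strongest, against 66.1% of the 2287. The exceptions were eIF1A and eIF3a, missed by replicate 3, and eIF4A and eIF4G2, each found in 1 replicate. The highest replicate rank divided by the lowest had a median of 1.60 in the 13 genes, against 1.86 in the 2260 protein-coding genes with a reproducible start summit and a start peak in every replicate. It was largest for eIF1A, at 5.35. The summit lay upstream of the nearest own start in 12 of 13 genes (92.3%), against 86.7%, and the median distance was -120 bp, against -131 bp, where negative means upstream.

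Start peaks shared with a neighbour were about as frequent as among all genes with a start summit. In 7 of the 13 genes (53.8%) the strongest start summit also lay within 500 bp of another coding gene's start, against 58.2% of the 2287 genes. Another gene's start was the nearer in 5 (38.5%), against 29.6%. Those were eIF1 (RpL28), eIF1A (Vps39), eIF3a (CG1074), eIF3m (CG8323) and eIF6 (the antisense RNA). A start was called divergent where a coding gene on the other strand started within 1000 bp upstream of it. By that definition 21 initiation factor genes (47.7%) had a divergent start, against 36.2% of all protein-coding genes. Among these 21, 9 (42.9%) had a start summit, against 29.3% of the 5052 divergent protein-coding genes. Among the 23 others, 4 (17.4%) had one, against 9.05% of 8893 genes. The 4 were eIF2beta, eIF2D, eIF4G2 and eIF6. Genes with 1 transcript start had a start summit in 6 of 29 cases (20.7%), against 12.3%, and genes with 2 or more in 7 of 15 (46.7%), against 27.7%.

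**Figure D3:**
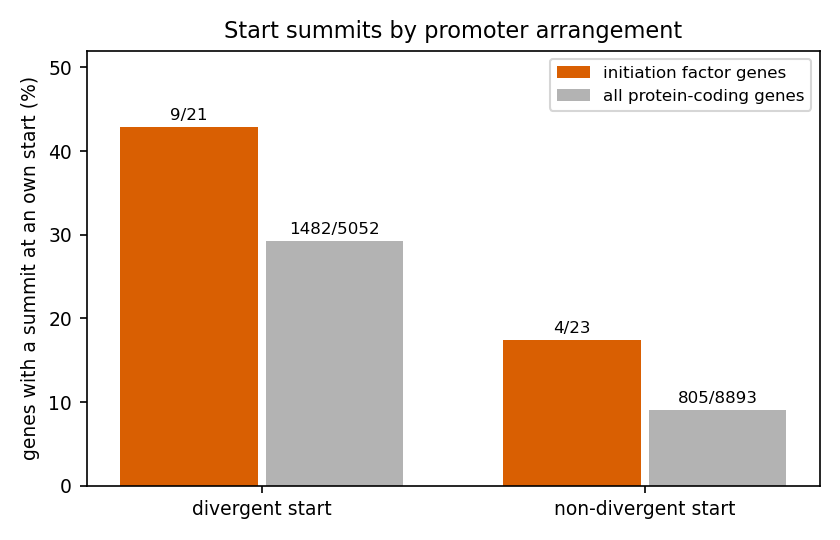
Share of genes with a reproducible summit within 500 bp of an own start (vertical axis, percent), for initiation factor genes (orange) and all protein-coding genes (grey), split by whether the start is divergent. Numbers above the bars are genes with a start summit over genes in the class; the divergent class is the higher in both sets, at 42.9% and 29.3%, against 17.4% and 9.05% for the non-divergent class.

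Away from their starts, the territories of the initiation factor genes held 20 further summits, and each of the 20 lay nearest to a transcript start of another gene. Of the 20, 5 lay inside the initiation factor gene. Those were 3 in eIF4EHP, of rank 986, 2840 and 3200, and 2 in eIF5B, of rank 736 and 2350. In eIF4EHP, the longest of the 44 genes, all 3 lay nearest to the start of Syx1A, a syntaxin gene nested in it, at 6609, 702 and 139 bp. The 2 in eIF5B lay in an intron, 13752 and 7974 bp from sty, a negative regulator of receptor tyrosine kinase signalling. The counts of 20 and 5 have no matching share over all protein-coding genes here, so they describe the 44 genes only.

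**Figure D4:**
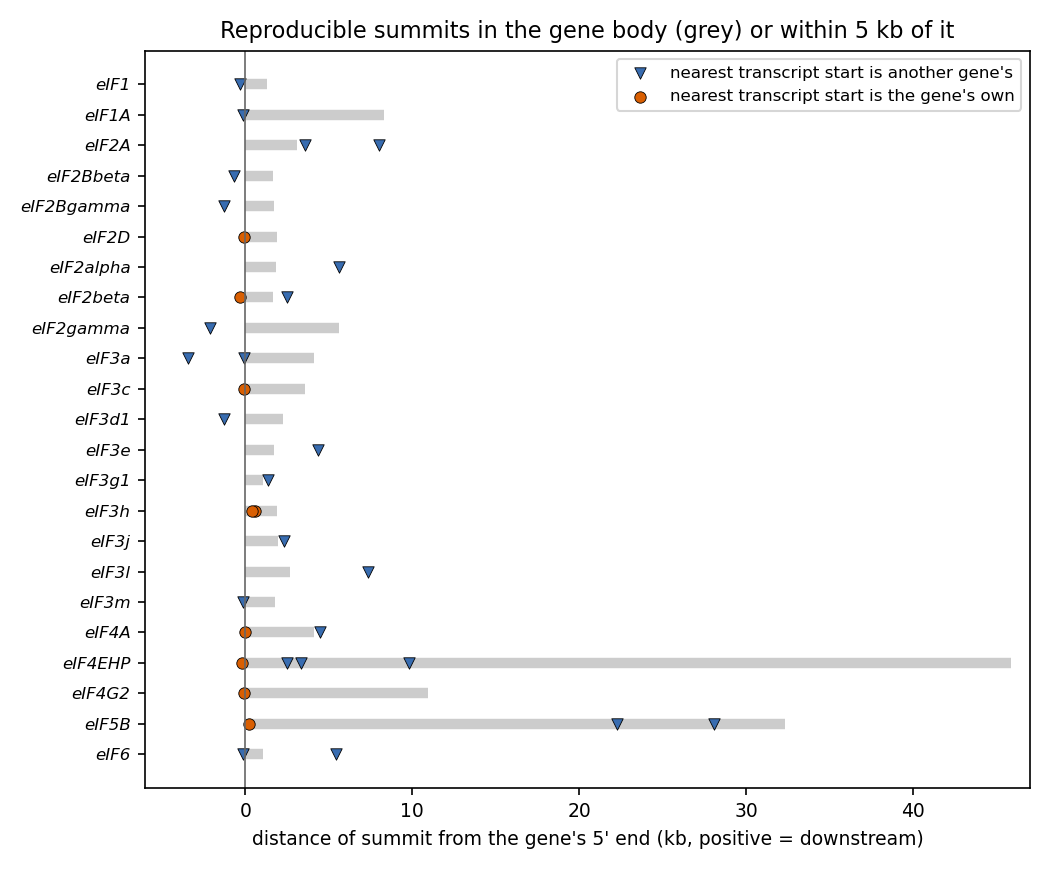
Reproducible summits (symbols) of the 23 initiation factor genes that had one (vertical axis), by distance from the gene's 5' end in kb (horizontal axis), with the gene body in grey. Orange circles are summits whose nearest transcript start is the gene's own, counting the shared start of eIF4G2, and they all lie close to 0. Blue triangles are summits nearest to another gene's start. They are the 20 away from starts and the start summits of eIF1, eIF1A, eIF3a, eIF3m and eIF6.

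Of the 7 motifs searched, 4 had a match at 1 or 2 of the 13 start summits and the others had none. Exact matches were counted on both strands in windows of 101 bp centred on the strongest start summit of each of the 13 genes, and overlapping motifs were all counted. TATCGATA was present in 2 windows (15.4%), those of eIF1 and eIF4A printed above, against 4.19% of the 1741 reproducible summits at coding gene starts and 5.56% of windows of that length at all 13945 gene starts. It was in 4 windows with 100 bp on each side of the summit (30.8%, against 7.87% and 7.84%) and in 0 with 25 bp. AAATCA, the core of the Senseless site, was present in 1 window (7.69%), that of eIF4A, in the part past the start that is not printed. Its shares in the other sets were 13.8% and 12.0%. The order turned with 100 bp on each side, where 5 windows (38.5%) held it, against 26.7% of start summits and 22.7% of gene starts, and with 25 bp it was in 0. TATAAA was found at eIF6 (7.69%, against 20.4% and 17.0%; with 100 bp on each side in 4 windows, 30.8%, against 33.5% and 29.2%) and GAGAG at eIF3c (7.69%, against 10.2% and 11.5%). GGTCACACT, the core of the promoter element motif 1, CAGCTG and AGATAA had no match in the 13 windows, against 1.03%, 4.71% and 7.18% at start summits and 4.37%, 9.34% and 4.14% at all gene starts. With 13 windows, 1 match more or less moves a share by 7.69 percentage points.

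Base composition varied widely among the 13 summits. The GC content of the window had a median of 36.6%, against 32.7% for the 2287 genes, and windows of the same size centred 500 bp to either side had a median of 47.5% in both sets. It was lower than in those flanks in 9 of the 13 genes, against 1866 of the 2287. At eIF1, eIF3a, eIF4G2 and eIF5B it was higher. At eIF2D it was 22.8%, against 60.9% in the flanks, and the printed stretch holds an unbroken run of 14 A or T. At eIF1 it was 53.5%, against 34.2% in the flanks, and the longest such run in the printed stretch is 4.

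Other genes of translation carried start summits too. Among 29 regulators and partners of initiation without the eIF prefix, 12 (41.4%) had one, and 20 (69.0%) had a summit in the gene body or within 5 kb, against 16.4% and 42.4% of all protein-coding genes. Among 12 elongation and termination factors, 6 had a start summit, and these 6 of 12 were also the only ones with a summit within 5 kb, against 42.4% of all protein-coding genes. Together this is 18 of 41 (43.9%), set beside 29.5% of the eIF genes and 16.4% over all genes. That count includes summits nearest to another gene's start, as at tral, Gcn2 and mTor. Both lists were chosen with earlier results of these data known, so their shares are descriptions only. The strongest start summit of the 41 genes was at larp, which encodes an RNA-binding protein, with rank 29, and 38, 23 and 35 in the replicates. It was followed by eEF1gamma (rank 285, and 272, 281 and 356), and by tral (rank 394, and 422, 469 and 268), whose product binds repressed mRNAs and whose peak lay nearest to sti. Gcn2, a kinase of eIF2alpha, had rank 1244, with Ugt35D1 the nearest start. The elongation factor genes eEF1alpha1 and eEF2 had ranks 1602 and 1634. Thor, the repressor that binds eIF4E, had a summit 8 bp inside the gene at rank 1973, and mTor, the kinase upstream of it, had one at rank 2577, nearest to Vha68-1. Other members named for their role had none at their start, among them S6k, pAbp and PEK.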

How the data were processed

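Peak lists in narrowPeak format on dm6 were used: 1 per replicate, 1 called on the pooled replicates and 1 optimal IDR list. Chromatin was sonicated to 200 to 800 bp, per the labels. The deposited signal value per peak has no stated scale; ranks follow it. The deposited −log10 q-value served as an alternative ranking. The names of the aligner and caller were not given in the sources used here. Deposited text notes name no control among the inputs of these lists. 5 lists on dm3 were not used.

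Summits were placed on Ensembl release 115 gene models of the same assembly with Python 3.11.15, using every annotated transcript start. A summit was nearest to the gene with the closest start of any annotated gene. Replicate ranks at a start are those of the strongest peak with its summit within 500 bp. The assignment was checked on simulated summits. No test was run: 1 group, no contrast, and depth unknown. Members and lists were chosen with earlier results of these data known. Every member is named; of the other translation genes, the 6 with the strongest start peaks, and Thor, mTor, S6k, pAbp and PEK, were named, these last 5 after their values were seen.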

Additional observations from a re-analysis of the deposited data

How the results depend on the processing

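The count of 13 initiation factor genes with a start summit ranged from 9 to 11 when the peaks had to be among the strongest of both other replicates (1 replicate left out in turn), while the share of all protein-coding genes was 11.8% to 12.4%. The count of 23 genes with a summit within 5 kb ranged from 17 to 20, while the share of all genes was 33.6% to 34.8%. The start count was 11 with 250 bp and 14 with 1000 bp around starts, against 13.3% and 19.0% of all protein-coding genes. Other settings moved it by over 1.5 times: the 1905 strongest reproducible peaks gave 8 (18.2%, against 8.77%), the full pooled list 27, and counting a summit only for the gene with the nearest start 8 (18.2%, against 11.8%). That last rule also took the count within 5 kb to 8 (18.2%, against 16.7%), since each summit away from starts was nearer to another gene. The median rank of the 13 start peaks was 1286, 1295 and 1662 in replicates 1, 2 and 3. Motif counts rested on few windows: AAATCA was found in 5 windows with 100 bp on each side (38.5%, against 26.7% of start summits) and in 0 with 25 bp, TATCGATA in 4 (30.8%, against 7.87%) and 0, AGATAA in 1 with 100 bp (7.69%, against 12.1%), and TATAAA in 4 with 100 bp (30.8%, against 33.5%). No paired analysis was possible because the series has 1 group. Depth is unknown, so the absence of a start peak at the 12 genes without one in any replicate list cannot be set against a detection limit.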

Other observations

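Below the reproducible list, 4 more initiation factor genes had a start peak among the 3811 strongest of a single replicate: eIF3b and eIF4E1 in replicate 1, and eIF2A and eIF2gamma in replicate 3. The matching share over all protein-coding genes was not computed, so this count describes the initiation factor genes only. At eIF2A the start peak had rank 3274 in replicate 3 and 25847 in replicate 2, and replicate 1 had none. At eIF2gamma the highest replicate rank divided by the lowest was 11.8, the largest ratio among the initiation factor genes with a start peak in all 3 lists.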
